A study of Drosophila melanogaster with 96 samples.

Results

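The 9 genes described here are markers of glia, the non-neuronal support cells of the nervous system: Eaat1, Gs2, nrv2, Indy, Inx2, CG6126, repo, moody and alrm. They were taken by gene symbol from the deposited table of 17698 genes, all 9 were present, and all 9 were among the 10568 genes that passed the filter on low values and were tested. The table holds RNA sequencing of whole heads of Drosophila melanogaster, 96 libraries in 4 groups of 24. Female control, female Achl_RNAi, male control and male Achl_RNAi flies were each sampled at 2 h intervals, 1 library at a time, with circadian time (CT) running from CT24 up to CT70. The study compared knockdown of Achl (Achilles), a gene under circadian clock control, with control flies in both sexes, and asked how it altered daily mRNA rhythms. Flies were adults, 3 to 5 days old at collection, kept at 25 degrees and moved from 12 h of light and 12 h of dark to constant darkness 24 h before the first sample. Each library was made from 7 to 8 dissected heads. The labels name neither the control construct nor the driver and the cell types in which the RNAi acted, so the controls cannot be described further. Every level below is in TPM, a measure of transcript abundance that is scaled for transcript length and to the same sum in each library.

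In the fly brain and eye, glia take up neurotransmitter, buffer ions, wrap cell bodies and axons and form the blood-brain barrier. Eaat1 imports glutamate from the synapse and Gs2, glutamine synthetase 2, turns it into glutamine, so the pair forms the glial arm of glutamate recycling. repo encodes the homeodomain factor that defines nearly all lateral glia, and alrm encodes a leucine-rich repeat protein used as the standard marker of astrocyte-like glia. moody encodes a G protein-coupled receptor of the subperineurial glia that seal the blood-brain barrier, and Inx2 a gap junction protein of glia. nrv2 encodes a beta subunit of the sodium pump. Indy encodes a citrate and dicarboxylate transporter that is also known from fat body, gut and oenocytes, and CG6126 a predicted organic cation transporter. Of these, repo and alrm are the most restricted to glia, and Indy and CG6126 the least established as glial genes.

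On the dm6 genome, Eaat1 (FBgn0026439) lies on chromosome 2L at 9333567 to 9341925 and nrv2 (FBgn0015777) on 2L at 6789770 to 6798862. Gs2 (FBgn0001145) lies on X at 11422832 to 11430197, Inx2 (FBgn0027108) on X at 6998672 to 7004151 and moody (FBgn0025631) on X at 2044292 to 2050120. Indy (FBgn0036816) lies on 3L at 18828632 to 18846267. CG6126 (FBgn0038407) lies on 3R at 16198000 to 16203083, repo (FBgn0011701) on 3R at 18236192 to 18239602 and alrm (FBgn0039332) on 3R at 25381065 to 25382781. All 9 are protein-coding genes, and no member had values identical to those of another gene. Exons of repo overlap exons of CG7156 on the other strand. The library kit keeps strand, but whether the counting used it is not given in the sources used here, so the level of repo is less certain than the others.

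The knockdown was visible in its target: the level of Achl was 68.3 ± 21.8 TPM (SD, n = 24) without and 15.6 ± 2.95 with RNAi in females, and 77.7 ± 39.1 and 22.5 ± 7.65 in males. The level of mt:lrRNA, the large mitochondrial ribosomal RNA, divided the female libraries: 14 of 24 control and 15 of 24 RNAi libraries had less than 50000 TPM and are called low-mt libraries, and the other 10 and 9 are called high-mt. All 12 female libraries of each genotype from the second day (CT48 to CT70) were low-mt, with 2 control and 3 RNAi libraries from the first day, so day and set cannot be told apart there, and no male library was low-mt. A level in TPM also moves when other transcripts take more or less of the library, and the median log2 change of all tested genes with RNAi was -0.18 in females and -0.16 in males. Changes are therefore given both as deposited and centred, that is, after subtraction of the median log2 value of the tested genes in each library. There was 1 library per group and CT, so p-values measure only the spread of the libraries around the fitted daily course of their group. That spread was pooled over all 4 groups for each gene, so p-values for males also carry the spread of the female libraries.

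The 9 genes spanned a wide range of levels, and Gs2 was the highest and repo the lowest in every group. In female controls the mean level was 774 ± 39.3 TPM for Gs2, 369.8 ± 45.6 for nrv2 and 294 ± 23.3 for Eaat1 (SD, n = 24). Indy followed with 148 ± 15.8, alrm with 138 ± 14.1, Inx2 with 111 ± 7.76 and CG6126 with 65.7 ± 9.82 TPM. moody, the receptor of a thin cell layer, had 35.1 ± 2.88 TPM, and repo, a transcription factor, 16.5 ± 1.23. Most neighbours in this order were separated in nearly every library: Gs2 was above nrv2 in 24 of 24 female control libraries, nrv2 above Eaat1 in 22, and moody above repo in 24. Some neighbours were closer. Indy was above alrm in 19 of 24 female control and 12 of 24 female RNAi libraries, whereas in males alrm was above Indy in 24 of 24 libraries of each genotype. In RNAi heads CG6126 was above moody in 18 and alrm above Inx2 in 21 of 24 female libraries, and Indy above Inx2 in 18 of 24 male libraries. By mean level, the order of the genes other than Indy and alrm was the same in all 4 groups.

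The members differed in how steady they were. Over the 24 male control libraries the coefficient of variation was 4.99% for moody, 6.04% for alrm and 6.49% for repo, and 16.2% for CG6126. CG6126 was also the most variable member in each of the other groups, from 14.9% in female controls to 25.9% in female RNAi heads. The female RNAi library of CT38 held the lowest value of its group for nrv2, repo, moody and alrm.

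**Figure D1:**
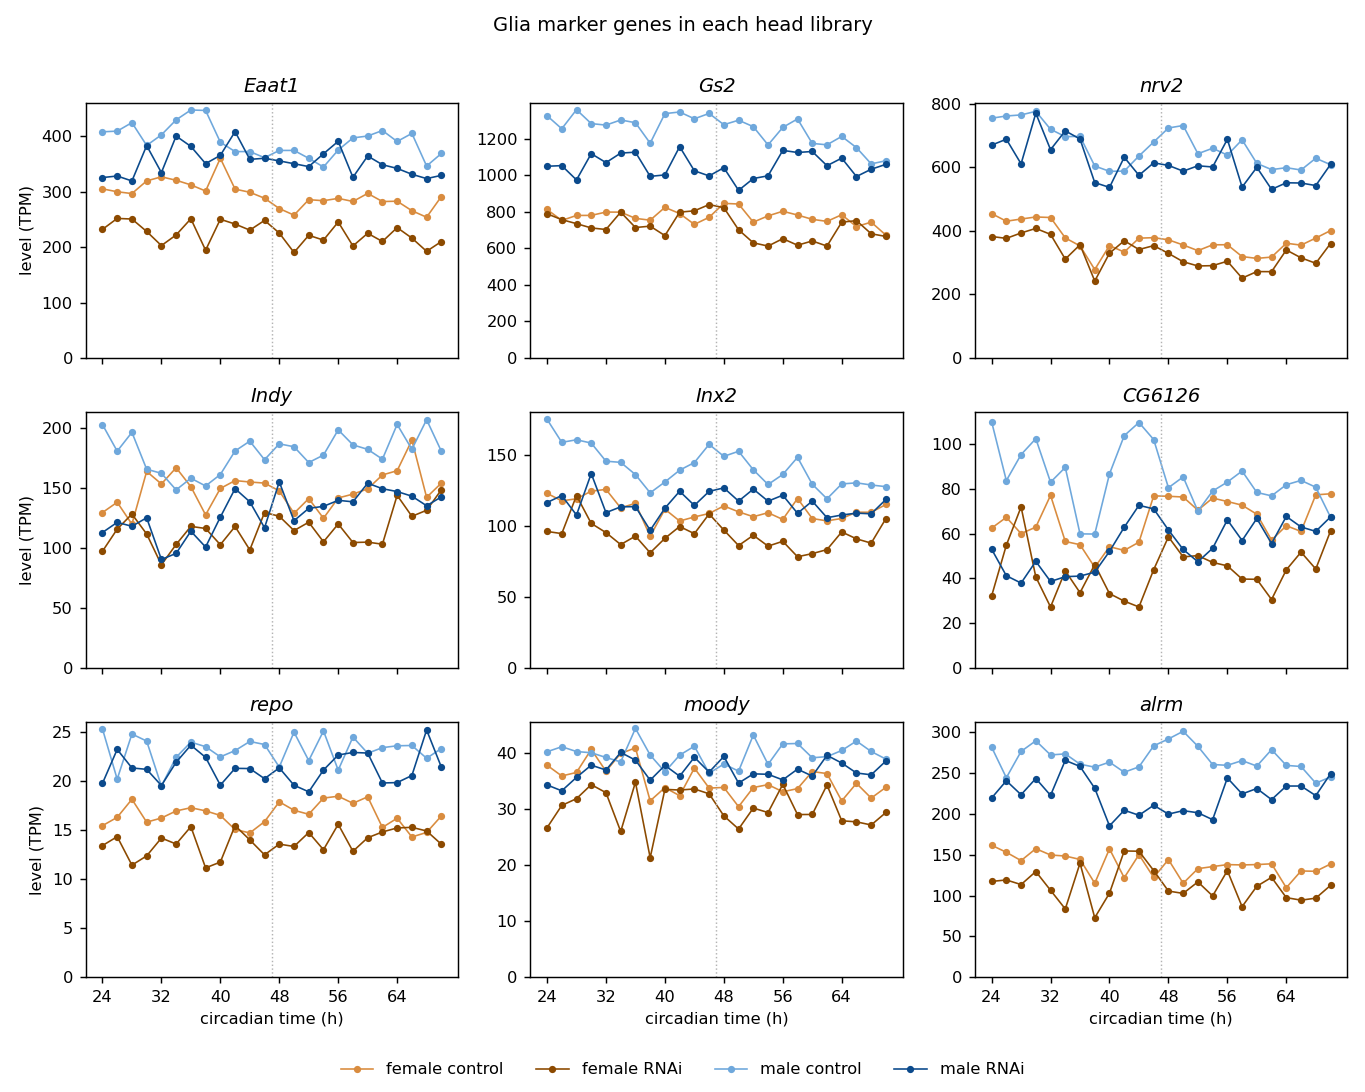
Level of each of the 9 glia marker genes (TPM, vertical axis from 0) in all 96 head libraries against circadian time in hours, with 1 point per library and 1 line per group. The dotted line separates the first from the second sampled day. The male lines of nrv2 and alrm lie above the female lines at every CT, and the female control and RNAi lines of Eaat1 do not overlap (254 to 359.9 against 190.2 to 251 TPM).

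The first comparison was between the sexes. All 9 glia markers were lower in female than in male control heads, and all 9 were lower in female than in male RNAi heads. The difference was largest for alrm, the astrocyte marker, which stood in female controls at 51.6% of the male level, and for nrv2 at 55.6%; it was smallest for moody at 87.9%. Among all tested genes 40.5% were lower in females among controls and 41.3% under RNAi at the same threshold (limma, Benjamini-Hochberg adjusted p under 0.05).

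In alrm, female control libraries ranged from 109.6 to 162 TPM with a median of 138, and male control libraries from 238 to 301 with a median of 262. The highest female control library was well below the lowest male one, and the same held in RNAi heads, where females ranged from 72.8 to 155 TPM and males from 185 to 266. The log2 difference, female minus male, was -0.95 (SE 0.05, adjusted p = 1.90e-31) in controls and had a 95% confidence interval from -1.10 to -0.90 (adjusted p = 2.93e-33) in RNAi heads, where females stood at 50.4% of the male level.

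The sodium pump subunit gene nrv2 ranged from 278 to 454 TPM in female controls (median 358) and from 587 to 775 in male controls (median 651). No female library of either genotype reached the lowest male library of that genotype. Its log2 difference was -0.85 (SE 0.04, adjusted p = 7.94e-33) in controls and -0.91 (SE 0.04, adjusted p = 3.83e-35) in RNAi heads. Gs2 showed the same separation, with 672 to 846 TPM in female and 1062 to 1359 in male controls, and a log2 difference of -0.69 (SE 0.03, adjusted p = 1.46e-36).

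For the nuclear marker repo the female control libraries held 14.3 to 18.4 TPM (median 16.4) and the male control libraries 19.5 to 25.3 (median 23.4). The ranges did not overlap, and the log2 difference was -0.46 (SE 0.03, adjusted p = 5.21e-24) in controls and -0.60 (SE 0.03, adjusted p = 2.93e-31) in RNAi heads. The other 5 members overlapped between the sexes in controls. Eaat1 had a log2 difference of -0.41 and Inx2 of -0.34, and both were lower in females in 24 of 24 same-CT pairs. For CG6126 it was -0.36, for Indy -0.28 and for moody -0.18, each in 22 of 24 pairs.

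Groups without overlap were thus seen for 4 of 9 members in controls (Gs2, nrv2, repo and alrm), against 9.16% of all tested genes with all female libraries below all male ones, and for 5 of 9 in RNAi heads, where Eaat1 joined them, against 10.1%. Centring hardly moved the sex differences, since the median of all genes differed little between the sexes (-0.05 in controls, -0.04 in RNAi heads). After it all 9 members remained lower in females in each genotype, against 39.7% of all genes in controls and 39.9% in RNAi heads. The centred log2 differences in controls ran from -0.93 for alrm to -0.16 for moody. The sizes did depend on another scaling. With TPM rescaled to leave out mitochondrially encoded transcripts, the log2 differences in controls were larger, from -1.12 for alrm to -0.35 for moody. There 9 of 9 members were lower in each genotype. The background rose too, to 5862 of the 10568 tested genes lower in controls and 5995 in RNAi heads. With the high-mt female libraries alone, 9 of 9 members were lower in controls and 9 of 9 in RNAi heads, where 49.2% of all genes were lower in either case. With the low-mt female libraries alone the counts were 9 of 9 against 36.3% in controls and 8 of 9 against 37.7% in RNAi heads, where Indy did not pass (-0.10, adjusted p = 0.0605). On the first day alone 8 of 9 were lower in controls, against 42.3%, without moody (-0.13, adjusted p = 0.0575), and 8 of 9 in RNAi heads, against 39.6%, without Indy (-0.08, adjusted p = 0.257).

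In whole heads, fewer cells of a type and less RNA per cell cannot be told apart. Markers of other cells moved with sex as well. All 15 neuron markers (elav, nSyb, brp and others) were lower in female controls, with a median log2 difference of -0.69, against -0.41 for the 9 glia markers and -0.05 for all genes. The summed level of the neuron markers was 1843 to 2705 TPM in female controls and 3136 to 3862 in male controls. Photoreceptor markers were lower in 5 and higher in 2 of 11, muscle markers lower in 2 and higher in 3 of 8, fat body markers lower in 2 and higher in 3 of 7 and hemocyte markers lower in 2 and higher in 4 of 7; no marker of these lists was at 0 throughout. Their part in the sex difference of the glia genes was not tested.

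**Figure D2:**
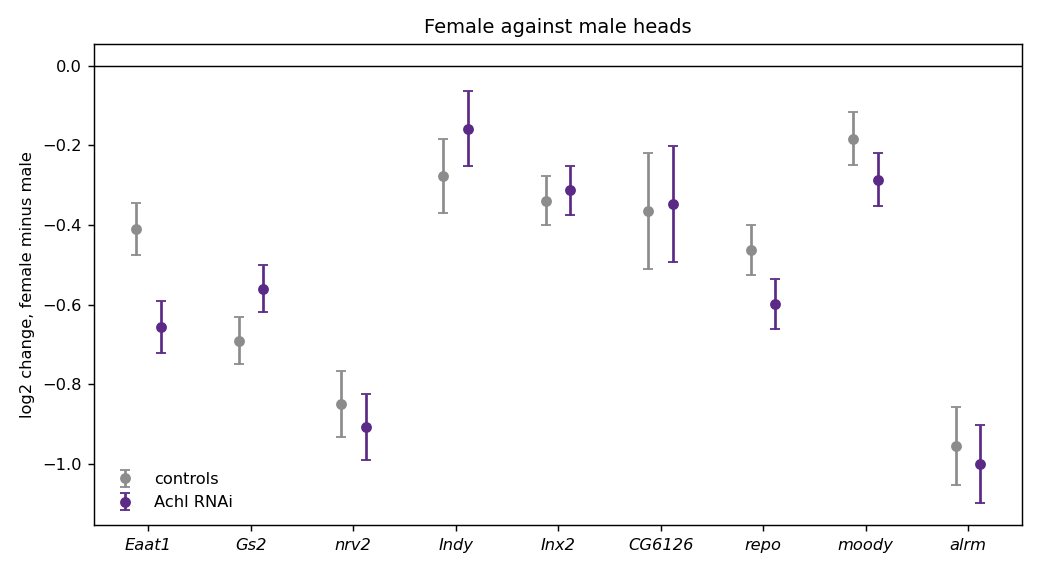
Log2 change of each glia marker gene in female against male heads (female minus male, vertical axis), in controls (grey) and in Achl RNAi heads (purple); points are fitted changes and bars their 95% confidence intervals. All points lie below 0, from -0.16 for Indy in RNAi heads down to alrm, at -0.95 in controls and lower in RNAi heads.

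The second comparison was RNAi against control within each sex. On the deposited scale all 9 glia markers were lower in female RNAi than in female control heads, and all 9 were lower in male RNAi than in male control heads. This count has to be read against 55.7% of all tested genes lower in females and 53.5% in males. On the first day alone 6 of 9 were lower in males, against 53.6%, and nrv2 (adjusted p = 0.0967), repo (adjusted p = 0.0588) and moody (adjusted p = 0.0968) did not pass. In females 8 of 9 were lower on that day, where 4538 of the 10568 tested genes were, and Gs2 did not pass (-0.05, adjusted p = 0.270). The transporter genes CG6126 and Indy fell in both sexes on the deposited and on the centred scale, Eaat1 fell on both scales in females and Inx2 on both scales in males. The remaining members passed the test on the deposited scale only. Markers of other cells moved as well: with RNAi, neuron markers were lower in 11 of 15 in females and 4 of 15 in males as deposited, and centred 2 were lower in females and 3 higher in males. Photoreceptor markers were lower in 9 of 11 in females (median -0.27) and 8 of 11 in males (median -0.19), and centred 4 were lower in each sex, with 2 higher in females and 1 in males. Among them the rhodopsin gene ninaE had the largest change, -1.46 in females and -1.27 in males. Muscle markers were lower in 4 of 8 in each sex, and centred 3 were lower and 2 higher in females and 2 lower in males. Hemocyte markers were lower in 1 and higher in 3 of 7 in females and lower in 2 in males as deposited, and centred 5 were higher in females and 2 higher in males, with none lower. Their part in the changes of the glia genes was not tested.

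CG6126, the predicted organic cation transporter gene, had the largest fall. Its levels ranged from 44.9 to 77.8 TPM (median 65.4) in female controls and from 27.1 to 71.9 (median 43.8) in female RNAi heads. In males they ranged from 59.8 to 110.1 TPM (median 83.4) in controls and from 37.8 to 72.6 (median 54.5) in RNAi heads. The ranges overlapped in both sexes, yet the RNAi library was the lower one in 22 of 24 same-CT pairs of females and 23 of 24 of males. The log2 change was -0.61 (SE 0.07, adjusted p = 2.82e-11) in females and -0.63 (SE 0.07, adjusted p = 9.12e-12) in males, and RNAi levels were 66.2% and 64.7% of control. Centred, it was -0.44 (adjusted p = 2.48e-11) and -0.47 (adjusted p = 2.14e-12).

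Indy, the citrate transporter gene, ranged from 119.5 to 189.5 TPM (median 149) in female controls and from 85.7 to 148 (median 116) in female RNAi heads. In males it ranged from 148 to 207 TPM (median 180.4) in controls and from 90.1 to 155 (median 134) in RNAi heads. RNAi libraries were lower in 23 of 24 pairs of females and 24 of 24 of males, although the ranges overlapped. The log2 change was -0.36 (SE 0.05, adjusted p = 6.75e-10) in females and -0.48 (SE 0.05, adjusted p = 1.17e-14) in males; centred, it was -0.19 (adjusted p = 5.95e-05) and -0.32 (adjusted p = 6.59e-11). Fat body is another known site of Indy expression. Of 7 fat body markers, 3 were lower and 1 was higher in female RNAi heads and 6 were lower in male RNAi heads, while centred 2 were lower and 2 higher in females and 4 lower in males. Their summed level was 2636 to 6426 TPM in female controls, 1808 to 6623 in female RNAi, 2999 to 4099 in male controls and 1410 to 2652 in male RNAi heads. The part of fat body in the change of Indy was not tested.

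Eaat1, the glutamate importer gene, ranged from 254 to 359.9 TPM (median 294) in female controls and from 190.2 to 251 (median 225) in female RNAi heads. Every female RNAi library was below every female control library, a separation that 0.132% of all tested genes showed in that direction. The log2 change was -0.39 (SE 0.03, adjusted p = 7.03e-18), lower in 24 of 24 pairs, and centred it was -0.22 (adjusted p = 8.11e-04). Male libraries ranged from 344 to 447 TPM in controls and from 319 to 408 in RNAi heads and overlapped widely. There the log2 change was -0.15 (SE 0.03, adjusted p = 1.63e-04), and centred it turned to 0.02 (adjusted p = 0.847). In males 0 of 9 members separated without overlap, against 0.577% of all genes.

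The level of Inx2, the gap junction gene, was 111 ± 7.76 TPM without and 93.2 ± 9.69 with RNAi in females, and 142 ± 14.1 and 116 ± 8.61 in males. It fell by 0.26 (SE 0.03, adjusted p = 2.90e-11) on the log2 scale in females and by 0.29 (SE 0.03, adjusted p = 6.25e-13) in males, where RNAi was lower in 24 of 24 pairs. The centred change was -0.09 (adjusted p = 0.153) in females and -0.12 (adjusted p = 0.0269) in males. Inx2 pairs with the innexin Ogre in glial gap junctions. On the deposited scale ogre changed by -0.25 in females and -0.21 in males. On that scale 55.7% of all tested genes were lower in females and 53.5% in males.

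The other 5 genes passed on the deposited scale only. alrm changed by -0.31 (adjusted p = 1.79e-07) in females and -0.26 (adjusted p = 7.17e-06) in males, from 138 to 113 and from 267 to 223 TPM. Gs2 changed by -0.12 (adjusted p = 6.25e-04) in females and -0.25 (adjusted p = 3.81e-11) in males, where it was lower in 24 of 24 pairs. For repo the change was -0.25 in females and -0.11 in males, for moody -0.21 and -0.11, and for nrv2 -0.18 and -0.12. After centring none of these 5 passed the test in either sex (lowest adjusted p in females 0.129, for alrm), and centring turned the sign for Gs2 in females (0.05) and for nrv2 (0.04), repo (0.05) and moody (0.05) in males. After centring 3 of 9 members were lower in females, against 11% of all genes, and 3 of 9 in males, against 17.7%. With TPM rescaled to leave out mitochondrially encoded transcripts, 9 of 9 were lower in females and 5 of 9 in males (Gs2, Indy, Inx2, CG6126 and alrm). In that setting 6416 of the 10568 tested genes were lower in females and 4742 in males.

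Within the female sets the changes had one direction. In high-mt libraries 7 of 9 members were lower with RNAi, against 42.9% of all genes, and Gs2 (-0.07, adjusted p = 0.178) and nrv2 (-0.03, adjusted p = 0.585) did not pass. In low-mt libraries 9 of 9 were lower, against 51.7%. In high-mt against low-mt libraries Eaat1 had a log2 change of -0.36 and -0.40, CG6126 of -0.68 and -0.59, Indy of -0.44 and -0.31, and repo of -0.25 in both. The changes of alrm (-0.16 and -0.38) and nrv2 (-0.03 and -0.25) differed more between the sets, and that difference was not tested.

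**Figure D3:**
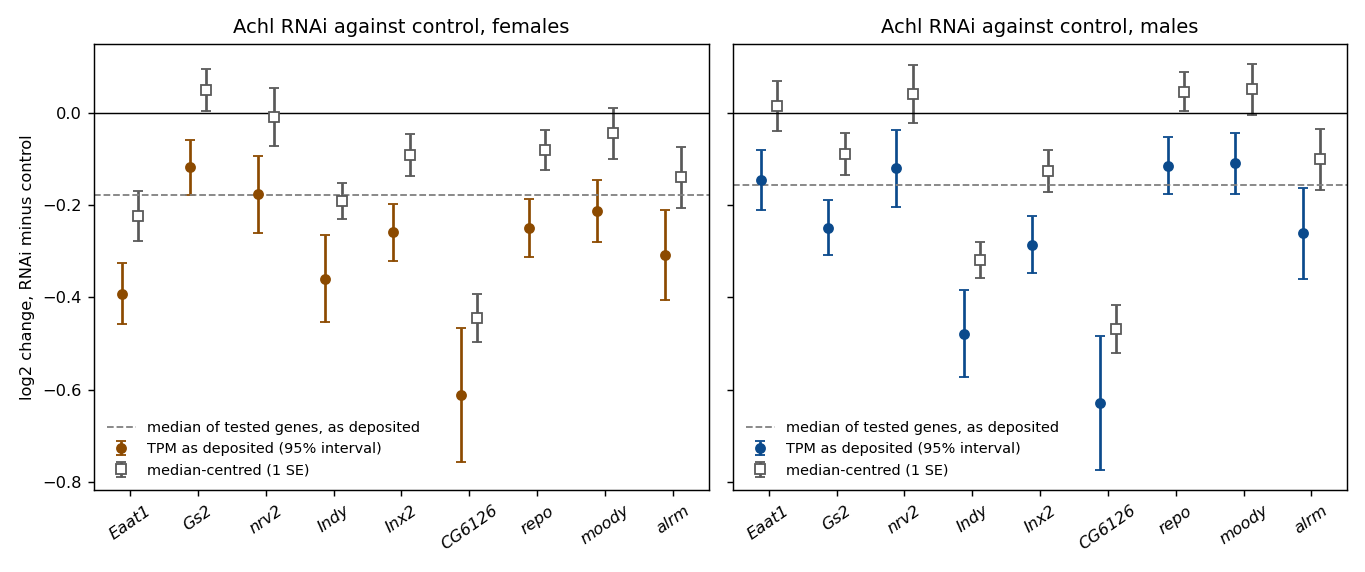
Log2 change of each glia marker gene with Achl RNAi (RNAi minus control, vertical axis) in females (left) and males (right); filled points are changes in TPM as deposited with 95% confidence intervals, open squares are median-centred changes with 1 SE, and the dashed line is the median of all tested genes as deposited (-0.18 and -0.16). CG6126 lies lowest in both panels, and the open squares of nrv2, repo and moody lie near 0.

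The sex difference of the RNAi effect was tested as an interaction, the change in females minus the change in males. It passed for 3 of 9 glia markers. Eaat1 fell more in females, by 0.25 on the log2 scale (interaction -0.25, SE 0.05, adjusted p = 4.93e-05), and so did repo (-0.13, SE 0.04, adjusted p = 0.0285), while Gs2 fell more in males (0.13, SE 0.04, adjusted p = 0.0250). The call of Gs2 held in some subsets, and that of repo did not hold in any. repo did not pass in high-mt (adjusted p = 0.126) or low-mt libraries (adjusted p = 0.0592) or on the first (adjusted p = 0.109) or second day (adjusted p = 0.3499). Gs2 had 0.25 on the first day and passed there, 0.015 on the second day (adjusted p = 0.918), 0.098 with low-mt libraries (adjusted p = 0.223) and 0.076 without mitochondrial genes (adjusted p = 0.378), and it passed with high-mt libraries (0.18, adjusted p = 0.00515). All genes gave 8.37% lower and 5.75% higher in this test, beside 2 of 9 and 1 of 9 for the members. After centring Eaat1 alone passed (-0.24, adjusted p = 0.0219), where 6.25% of all genes were lower; Gs2 had 0.14 (adjusted p = 0.140) and repo -0.13 (adjusted p = 0.161). With high-mt female libraries alone the Eaat1 interaction was -0.22 (adjusted p = 0.00172), with low-mt ones alone -0.25 (adjusted p = 3.85e-04), and on each day alone -0.25. CG6126, with the largest falls, had an interaction of 0.02 with a 95% confidence interval from -0.19 to 0.22, and Indy one of 0.12, from -0.01 to 0.25.

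Of the glutamate recycling pair, Eaat1 went from 294 to 224 TPM in females and from 391 to 353 in males, and Gs2 from 774 to 716 in females and from 1251 to 1052 in males. Relatives of both genes were measured too. Gs1, the mitochondrial glutamine synthetase gene, had 164 TPM without and 163 with RNAi in females, 172 and 166 in males, and passed neither the RNAi test as deposited (adjusted p = 0.931 in females, 0.305 in males) nor the sex test in controls (-0.08, adjusted p = 0.148). On the centred scale Gs1 was higher with RNAi in females (0.16, adjusted p = 0.0187) and did not pass in males (0.10, adjusted p = 0.130). Eaat2, a transporter of acidic amino acids in ensheathing glia, was lower in female controls by 0.43 on the log2 scale and did not pass the RNAi test as deposited (-0.05 in females, -0.06 in males). Centred, Eaat2 was higher with RNAi in females (0.11, adjusted p = 0.0155) and in males (0.10, adjusted p = 0.0225).

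The sodium pump and innexin relatives were also measured. Atpalpha, the pump's alpha subunit, had 975 TPM in female and 1580 in male controls, a log2 difference of -0.70, and nrv3, a beta subunit of neurons, had 1111 and 1922 TPM (-0.81). nrv1, another beta subunit gene, had a log2 difference of -0.37. Of the innexins, ogre did not differ between the sexes in controls (181 TPM in each, adjusted p = 0.948), shakB, which forms neuronal gap junctions, was lower in females (-0.83), and Inx3 was higher (0.20). Inx5 and Inx6, known from other tissues, and Indy-2, the paralog of Indy, were below the filter, with means under 0.05 TPM in every group. Tre1, the closest relative of moody, had 4.83 TPM in female and 4.48 in male controls, well below moody. Among the 10 tested relatives, 5 were lower and 1 was higher in female than in male controls. With RNAi, 6 were lower in females and 4 in males as deposited, near or below the shares of all genes, and centred 1 was lower and 2 higher in females and 3 higher in males.

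To place the 9 members among other glial genes, 27 further tested markers of glial classes were examined, which makes 36 with the members. Of the 36, 27 were lower and 1 was higher in female than in male controls, with a median log2 difference of -0.30. Of all tested genes 40.5% were lower and 27.7% higher there, with a median of -0.05. In female against male RNAi heads 27 of the 36 were lower and 3 higher, against 41.3% and 32.7%. All 7 astrocyte markers were lower in female controls. The GABA transporter gene Gat had the largest difference among them, -1.17, from 298 TPM in males to 135 in females. Among ensheathing markers CG9657, a predicted sodium-coupled solute transporter gene, was at 36.9% of the male level (-1.42), the engulfment receptor gene drpr had -0.37, and the adaptor gene ced-6 did not pass (-0.03, adjusted p = 0.446).

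The classes were not uniform. Of 8 subperineurial barrier markers, 6 were lower in female controls, among them the septate junction genes Nrx-IV (-0.47), sinu (-0.53) and kune (-0.45), while the multidrug transporter gene Mdr65 (-0.04) and cora (0.06) did not pass. Cortex glia markers wrapper (-0.46) and zyd (-0.25) were lower and Cyp4g15 (-0.10) did not pass. The perineurial list ran the other way: Col4a1, a collagen gene, was higher in female controls (0.51, adjusted p = 2.19e-07), and in female against male RNAi heads the trehalose transporter gene Tret1-1 (0.43), vkg (0.44) and Col4a1 (0.59) were all higher. vkg and Col4a1 are also made by fat body and hemocytes. gcm and gcm2, the embryonic glial fate genes, were below the filter, with means under 0.5 TPM.

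With RNAi, 31 of the 36 glia genes were lower in females (median -0.22) and 28 in males (median -0.18), close to the medians of all genes of -0.18 and -0.16. The shares of all tested genes that were lower were 55.7% in females and 53.5% in males. Centred, 11 were lower and 5 higher in females, against 11% and 11.2% of all genes, and 10 were lower and 5 higher in males, against 17.7% and 14.7%. The genes that fell on the centred scale in both sexes, besides CG6126 and Indy, included ebony (e), which makes beta-alanyl histamine in lamina glia (-0.27 in females, -0.26 in males), the cortex glia exchanger gene zyd (-0.18 and -0.14), wrapper (-0.10 and -0.18) and CG9657 (-0.20 and -0.17). In females 0 of 3 perineurial genes passed as deposited (limma; 1, vkg, at an unadjusted p under 0.05), and all 3 were higher on the centred scale, Tret1-1 by 0.19, vkg by 0.35 and Col4a1 by 0.29; there 5 of 7 hemocyte markers were higher too, and their part was not tested. No subperineurial gene passed after centring in females.

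**Figure D4:**
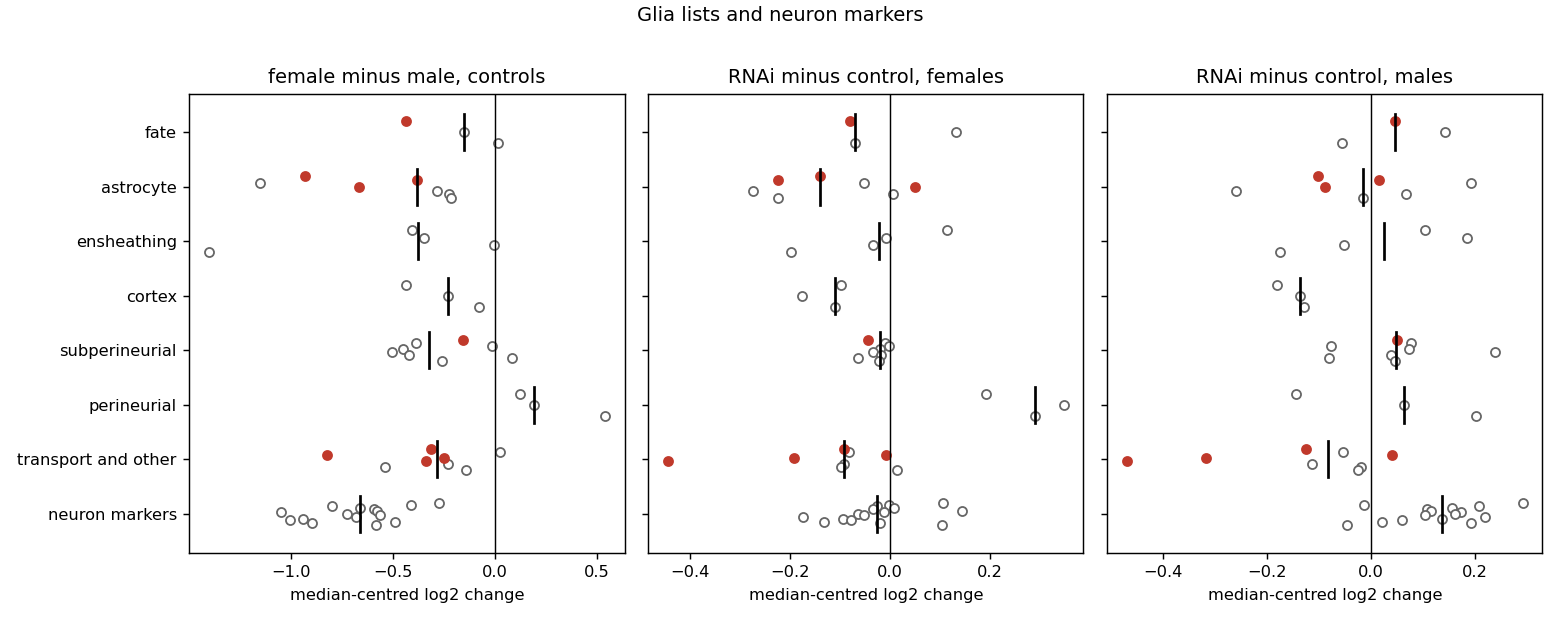
Median-centred log2 change (horizontal axis) of each tested gene of the glia lists and of the neuron markers, for female minus male controls (left), RNAi minus control in females (middle) and in males (right); filled red points are the 9 members, open points other genes, and black bars the median of a list. The astrocyte and neuron lists lie left of 0 in the sex comparison, and the perineurial list lies right of 0 there and in females with RNAi.

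The series was sampled to follow daily rhythms, and few rhythm tests of the glia markers passed. A 24 h rhythm passed for 1 of 9 members in male controls and for 0 of 9 in each other group (limma F test). The shares over all tested genes were 1.26% in male controls, 1.60% in female controls, 1.40% in female RNAi and 1.02% in male RNAi heads. At an unadjusted p under 0.05 there were 2 members in male controls, 2 in female controls, 4 in female RNAi and 3 in male RNAi heads, against 5.64%, 9.22%, 10.8% and 15.1% of all genes at that p. The gene that passed was Inx2 in male controls, with a fitted peak-to-trough ratio of 1.20 and a peak at CT2.6 (adjusted p = 0.0206), counted from 0 to 24 within a day; its ratio was 1.11 in female controls, 1.17 in female RNAi and 1.12 in male RNAi heads. After centring Inx2 no longer passed (adjusted p = 0.713). Conversely CG6126 in female RNAi heads, with a ratio of 1.40 and a peak at CT2.2, passed after centring (adjusted p = 0.0125) but not on the deposited scale (adjusted p = 0.160). nrv2 had an unadjusted p under 0.05 in all 4 groups and did not pass in any, with its lowest adjusted p in female controls (0.0800). Its ratio was 1.24 in female and 1.23 in male controls, 1.20 in female RNAi and 1.18 in male RNAi heads. Its peaks lay from CT0.68 to CT5.4. After centring the adjusted p of nrv2 was 0.179 or more in every group.

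Fitted peak-to-trough ratios of the members ran from 1.05 to 1.28 in female controls and from 1.03 to 1.23 in male controls, and up to 1.40 in female RNAi and 1.39 in male RNAi heads. The test that the rhythm differed between groups was passed by 0 of 9 members with RNAi in females (0.0189% of all genes), 0 of 9 in males (0%) and 0 of 9 between female and male controls (0.00946%). At an unadjusted p under 0.05 these tests gave 2, 0 and 1 members, against 7.44%, 1.89% and 2.70% of all genes at that p. With the second day alone 4 of 9 members were rhythmic in female RNAi heads, where 28.9% of all genes were.

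Levels on the second sampled day (CT48 to CT70) were also compared with the first (CT24 to CT46). In female controls Eaat1 (-0.16), nrv2 (-0.13) and moody (-0.11) were lower on the second day and CG6126 (0.24) was higher, so 3 of 9 were lower against 12.4% of all genes and 1 of 9 higher against 47.3%. In female RNAi heads Eaat1 (-0.11), Gs2 (-0.16), nrv2 (-0.22) and Inx2 (-0.11) were lower and Indy (0.13), CG6126 (0.25) and repo (0.10) higher, 4 of 9 against 8.41% and 3 of 9 against 50.1%. Centred, 8 of 9 were lower and 0 higher in female controls, against 26.5% and 24.7% of all genes, and CG6126 had 0.07 (adjusted p = 0.458). In female RNAi heads 6 of 9 were lower and 0 higher after centring, against 29.2% and 22.1%, and Indy (-0.10), repo (-0.13) and CG6126 (0.02) did not pass. With only the groups compared in the fit, 2 of 9 were lower and 0 higher in female RNAi heads, against 373 and 4514 of 10568 genes. These female values move with the mt sets, since all second-day female libraries were low-mt. In male controls 0 of 9 members passed in either direction, against 0.0946% lower and 0.00946% higher of all genes. In male RNAi heads Indy rose from 117 ± 16.9 to 141 ± 9.34 TPM (SD, n = 12; log2 change 0.28, adjusted p = 9.52e-04) and CG6126 from 50.1 ± 12.5 to 59.95 ± 6.69 TPM (0.28, adjusted p = 0.0324). That is 2 of 9 higher against 12.9% of all genes, with 0 of 9 lower against 0.530%. Centred, Indy still passed in male RNAi heads (0.15, adjusted p = 0.0338) and CG6126 did not (0.16, adjusted p = 0.160).

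Last, the members were compared by how they varied from library to library around their group means, in centred values over 96 libraries. Pairs among alrm, moody, Eaat1, Gs2, nrv2, Inx2 and repo had Pearson's r from 0.45 to 0.91 with a median of 0.69, and nrv2 with Inx2 was the closest pair (0.91). Indy (median r 0.14 with the other 8 genes) and CG6126 (median r -0.26) stood outside this group, a division made after the values were seen. All genes share the same libraries. Over the same 21 pairs the median was 0.37 (from -0.12 to 0.75) in the 19 high-mt female libraries. It was 0.35 (from -0.24 to 0.84) in the 29 low-mt ones and 0.64 (from 0.41 to 0.90) in the 48 male libraries. In neither female set was r above 0 for every pair. For nrv2 with Inx2 r was 0.75 in high-mt, 0.71 in low-mt and 0.90 in male libraries. These are descriptions of libraries, with no test.

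Over all 8447 other tested genes with a mean of at least 5 TPM, the genes most like each member were as follows. nrv2 had kdn, the citrate synthase gene (r 0.93), Inx2 (0.91) and Atpalpha (0.89), the alpha subunit with which its product forms the pump. Inx2 had nrv2, kdn and Mlc2, a muscle myosin light chain gene (0.84). alrm was closest to scro (0.95), CG8245 and Schip1, and moody to Pka-R2 (0.92), a regulatory subunit gene of protein kinase A, Frq1 and PRL-1. Eaat1 was closest to CG8861 (0.88), CG11050 and Pu, and Gs2 to Tsp5D (0.89), Vha55 and Pu, where Pu encodes GTP cyclohydrolase. repo had CG1407 (0.79), CG34354 and the synaptic gene nSyb. The 2 transporter genes had looser neighbours of another kind: CG6126 was closest to GlyP (0.68), CG1213 and GlyS (0.64), with glycogen phosphorylase and glycogen synthase encoded by GlyP and GlyS, and Indy to UGP (0.63), Acsl and CG10960. The member closest to CG6126 was Indy, with r 0.05, at place 3648 among those genes. Most other members were not nearest to each other either. The closest member stood at place 1199 for repo, 951 for moody, 937 for alrm, 520 for Indy, 109 for Eaat1 and 70 for Gs2. Only nrv2 and Inx2 had each other among the nearest genes, at place 2 and 1.

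**Figure D5:**
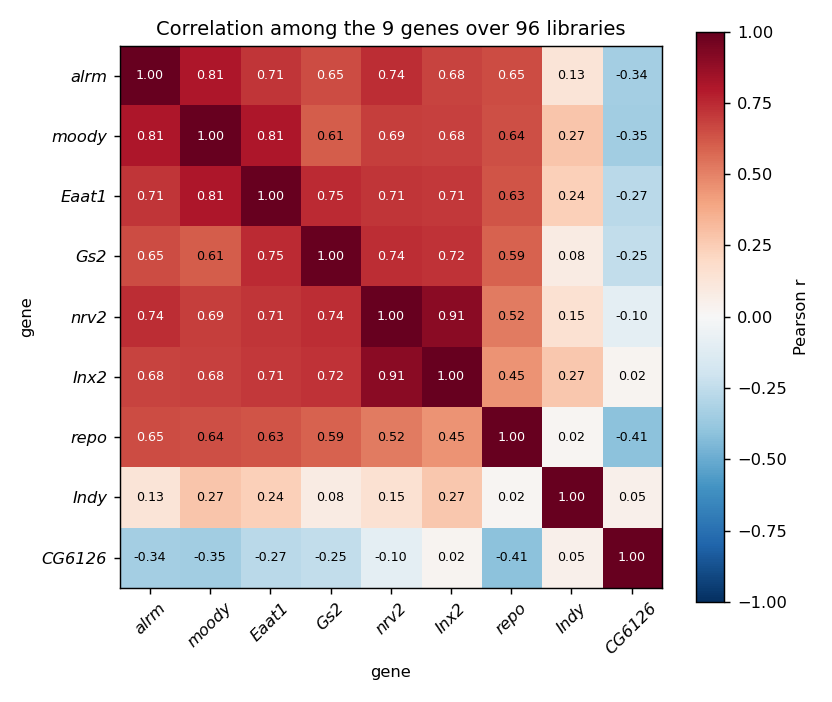
Pearson's r between the 9 glia marker genes over 96 head libraries (both axes list the genes; colour and printed number give r), in median-centred log2(TPM + 1) minus group means. The block of 7 genes at upper left has r from 0.45 to 0.91, and the rows of Indy and CG6126 have r from -0.41 to 0.27 with those 7.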

How the data were processed

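Each library was made from 200 ng of total RNA of 7 to 8 heads with a stranded mRNA kit, per the labels' protocols. The submitters' processing notes list the aligner STAR, the quantifier RSEM and the genome build dm6, without versions. The table deposited by the authors holds TPM with the same sum in each library, so sequencing depth is unknown and no counting interval can be given; precision is read from the spread between libraries. A count test was not possible with TPM. All 96 columns were used, and 0 columns of per-sample values were left out.

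From these values, log2(TPM + 1) was taken for the 10568 genes that reached 1 TPM in 24 or more libraries and fitted with limma 3.58.1 (trend and robust options, R 4.3.3) in 1 model of all 96 libraries, with a mean, cosine and sine of period 24 h for each group. Log2 changes are on that scale, so those of low genes are understated. Tests were two-sided, adjusted by Benjamini-Hochberg over all tested genes, at a threshold of 0.05; day tests added a term for the day. The fit was run on simulated data with planted changes and independent noise. Those data held no difference by day or mt set, so they cannot show how reliable the calls are here. Groups came from the labels' sex, genotype and CT. Same-CT libraries of different groups did not deviate together in every pair. The median correlation of deviations was 0.23 for female RNAi and control (from -0.35 to 0.56). It was 0.09 for male RNAi and control and -0.04 for female and male controls. The main fit did not pair libraries by CT, and counts of same-CT pairs are descriptions without a test. Alternatives tried were pseudocounts of 0.1 and 5, no filter, median centring, rescaling without mitochondrial genes, an added 12 h harmonic, limma without the robust option, a fit of only the groups compared, each female mt set, each day and CT as a block.

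Positions and overlaps come from Ensembl release 115 (BDGP6, that is dm6), which held 17560 of the 17698 identifiers. Named genes are the 9 members, genes of the glia lists and relatives of members, with the gene of lowest p leading a list, and for each member the 3 genes of highest Pearson r. Members and lists were chosen with earlier results of these data known. Glaz, listed as a glia marker, was not matched by symbol. Figures used Python 3.11.15 and matplotlib 3.10.9.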

Additional observations from a re-analysis of the deposited data

Results flagged for a closer look

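The effect of RNAi differed between females and males, by the interaction test (limma), for 3 of the 9 glia marker genes: Eaat1 (-0.25, adjusted p = 4.93e-05), Gs2 (0.13, adjusted p = 0.0250) and repo (-0.13, adjusted p = 0.0285), each given as the log2 change in females minus that in males. Among the other 27 tested genes of the glia lists it differed for 3 more, 2 lower and 1 higher. All tested genes gave 8.37% lower and 5.75% higher in this test. The engulfment receptor gene drpr had -0.20 (adjusted p = 0.00229), with 59.0 and 52.4 TPM in female control and RNAi heads and 76.7 and 78.1 in males. The septate junction gene sinu had -0.28 (adjusted p = 0.00230), with 26.9 and 23.4 TPM in females and 39.2 and 41.4 in males. The trehalose transporter gene Tret1-1 had 0.33 (adjusted p = 0.0122), with 271 and 278 TPM in females and 256 and 207 in males. After centring, the difference still passed for Eaat1 (adjusted p = 0.0219), drpr (adjusted p = 0.0164) and Tret1-1 (adjusted p = 0.00111), and not for sinu (adjusted p = 0.0563), Gs2 or repo. The Gs2 value was 0.015 (adjusted p = 0.918) on the second day alone, and it passed on the first (0.25, adjusted p = 0.00163). Gs2 also passed with high-mt libraries (0.18, adjusted p = 0.00515) and did not with low-mt ones (0.098, adjusted p = 0.223). repo passed in neither mt set (adjusted p = 0.126 and 0.0592) and on neither day alone (adjusted p = 0.109 and 0.3499). The values of drpr, sinu and Tret1-1 were not examined by mt set or day.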

How the results depend on the processing

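Among 281 counts of members recomputed under 13 alternatives, 240 stayed within 1.5 times the value reported and 41 moved. With median-centred values, 3 members were lower with RNAi in females and 3 in males (1163 and 1871 of 10568 genes). The female minus male test gave 1 lower and 0 higher (661 and 855 genes). There 1 was rhythmic in female RNAi (133 genes) and 0 in male controls (149 genes). On the second day 8 were lower and 0 higher in female controls (2805 and 2614 genes). In female RNAi 0 were higher (2333 genes), and in male RNAi heads 3 were lower and 1 higher (297 and 358 genes). Rescaled without mitochondrial genes, 5 were lower with RNAi in males (4742 of 10568 genes) and 0 higher in the female minus male test (550 genes). There 1 was rhythmic in female RNAi (230 genes) and 0 in male controls (131 genes). On the second day 8 were lower and 0 higher in female controls in that setting (2610 and 2467 genes). In female RNAi 0 were higher (3206 genes), and in male RNAi heads 1 was lower and 1 higher (98 and 890 genes). With no filter, 1 member was higher on the second day in female RNAi (5178 of 16519 genes). With only the groups compared in the fit, 2 were rhythmic in male controls (216 of 10568 genes). On the second day 2 were lower and 0 higher in female RNAi (373 and 4514 genes), and 1 was lower in male RNAi (78 genes). With high-mt female libraries, 1 was lower in the female minus male test (1155 genes). There 1 was rhythmic in female and 2 in male controls (244 and 199 of 10568 genes). With low-mt ones, 1 was lower and 0 higher in that test (881 and 541 genes). There 2 were rhythmic in male controls (211 genes) and 1 in each RNAi group (313 genes in females, 658 in males). On the first day alone, 1 was lower in that test (783 genes), with 1 rhythmic in female controls, 0 in male controls and 1 in male RNAi. Of the 10568 tested genes, 84 were rhythmic in female controls, 77 in male controls and 2464 in male RNAi on that day. On the second day alone, 1 was lower and 0 higher in that test (323 and 190 genes). There 4 were rhythmic in female RNAi (28.9% of all genes) and 0 in male controls (125 genes). Centring reversed the RNAi change of Gs2 in females (0.050) and of Eaat1 (0.015), nrv2 (0.041), repo (0.047) and moody (0.051) in males, and the day change of Indy (-0.15) and repo (-0.13) in female controls and of Indy (-0.10) and repo (-0.13) in female RNAi. Rescaling without mitochondrial genes reversed those day changes too, to -0.15 and -0.13 in female controls and -0.028 and -0.049 in female RNAi. The cause was not tested. Sex counts stayed at 9 of 9 except for 8 on the first day in controls and RNAi heads and 8 with low-mt libraries in RNAi heads; rhythm differences stayed at 0. With CT as a replicate block, 9 members were lower with RNAi in females and 9 in males (6218 and 5914 of 10568 genes). In each sex comparison 9 were lower (4356 genes in controls and 4429 in RNAi heads). No count of members changed. The rhythm of 1 group and the day change cannot be estimated under that block. The day change was not run for single days or mt sets.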
